A study of Mus musculus with 10 samples.

Results

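Footprints of 8 or 9 bp are the narrowest in the list of protein-protected DNA called in 3T3-L1 cells 4 h after the start of fat cell differentiation. They were taken by width alone (end minus start of 8 or 9 bp), which gave 31766 of 329076 footprints, or 9.65% (95% Wilson interval 9.55 to 9.75%, counting error only). They were set against the 124774 footprints of 15 to 25 bp, a range around the middle of the list. The 3T3-L1 line is a mouse fibroblast line committed to the fat lineage. The DNase group was induced in 10% FCS with 1 µM dexamethasone, 1 µg/mL insulin and 0.5 mM 3-isobutyl-1-methylxantine. Its 2 samples, 1 of them labelled paired-end, come from the same library, and the authors pooled them with older reads of it to call sites and footprints. The study's 8 RNA samples (4 groups of 2, with lentiviral shRNA to C/EBPβ or scrambled, at 0 h or 4 h) were not analysed here, so the cell type was not checked against marker genes.

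DNase I cuts DNA where nucleosomes are absent or displaced, and the stretches it cuts most are called DNase I hypersensitive (DHS) sites. A transcription factor bound inside such a site shields the bases it contacts, which leaves a short dip in the cuts called a footprint. Single factors recognise short DNA words, whereas dimers and neighbouring factors cover longer stretches. The width of a footprint also depends on the caller and on the sequence preference of DNase I, and it does not name the protein.

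With 1 library there are no replicates, so no test between the widths could be made and every comparison is a description. The spread of a difference is given as its SD over the 19 autosomes and chromosome X, which shows only how evenly it lies over the genome. No read counts accompany the lists, and the depth behind each footprint is unknown. Footprint positions are on the mm9 build. Since mm9 sequence and gene annotation were not used here, footprints are given by position without their bases or nearby genes.

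Very short footprints were frequent. There were 15702 footprints of 8 bp, the smallest width in the list, and 16064 of 9 bp. Just outside the limit there were 13594 footprints of 10 bp. The count was lowest at 20 bp with 10172, and it was highest with 38035 at 30 bp, the largest width. Odd widths outnumbered the even width just below them, with a ratio of 1.02 for 9 bp over 8 bp and ratios of 1.06 to 1.11 for the other such widths from 11 to 25 bp. The list thus has a large group at the narrow end as well as at the wide end, and footprints of 20 bp were the least common.

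The score in the list is the authors' own value for each footprint. It is negative throughout and more negative values were read as stronger, although the sources used here do not give its scale. Footprints of 8 or 9 bp had a median finite score of -4.24 (interquartile range -5.04 to -3.82), against -4.39 (-5.44 to -3.87) for those of 15 to 25 bp and -4.38 for all footprints. The difference of 0.15 was small beside these ranges, which overlapped over most of their length. It had the same sign on 20 of 20 chromosomes, with a mean of 0.15 ± 0.05 (SD, n = 20 chromosomes). At the same number of footprints per site it was 0.32. The medians moved little over the lowest widths, with -4.22 at 8 bp, -4.25 at 9 bp and -4.22 at 10 bp, and reached -4.75 at 29 bp.

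**Figure D1:**
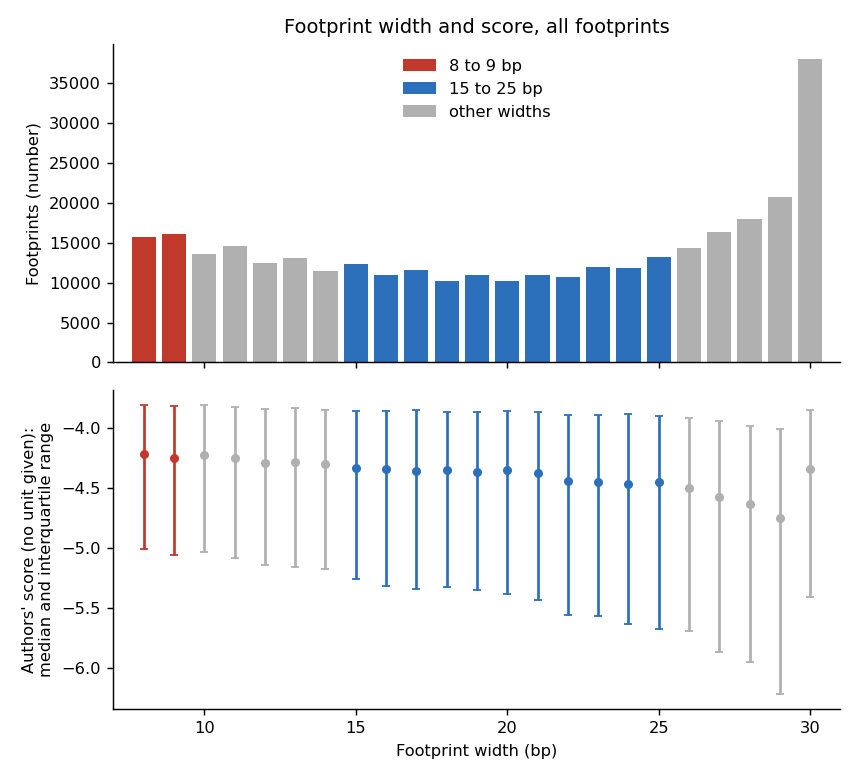
Number of footprints at each width in bp (upper panel) and the median of the authors' score with its interquartile range (lower panel), with 8 to 9 bp in red, 15 to 25 bp in blue and other widths in grey. Footprints of 8 and 9 bp number 15702 and 16064, and their median scores of -4.22 and -4.25 lie at the weak end of the range over widths.

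The gap in score lay mainly among the stronger footprints. The strongest 5% of the 8 to 9 bp set had scores below -7.35, against -8.64 for the 15 to 25 bp set. When all finite scores were cut into 10 classes of equal number, footprints of 8 or 9 bp made up 5.53% of the strongest class (scores of -7.14 or lower) and 11.2% of the weakest. Footprints of 15 to 25 bp held an even 37.5 to 38.8% of each class. The narrow footprints were thus thinned out where scores were strong, and the comparison set was not.

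Comparing footprints of the same site gave a larger gap. In 16486 sites that held finite scores of both sets, the median per site was -4.23 for 8 to 9 bp and -4.62 for 15 to 25 bp, and the median difference within a site was 0.33. The 8 to 9 bp footprints were the weaker in 11099 of these sites (67.3%) and the stronger in 5386 (32.7%). Ranked within their own site from 0 for the strongest to 1 for the weakest, they had a mean rank of 0.622, against 0.491 for 15 to 25 bp, in sites with 3 or more footprints. Footprints of 10 bp, just outside the limit, had a mean rank of 0.616. The 8 to 9 bp footprints tended to be the weaker footprints of their sites, as did those of 10 bp.

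The narrow footprints lay in sites that were broad and rich in footprints. The site holding an 8 to 9 bp footprint was typically 1118.5 bp wide (median, with quartiles at 826 and 1559 bp), against 1039 bp (749 and 1496 bp) for 15 to 25 bp and 1027 bp for all footprints. The same sites held a median of 12 footprints, against 9 for the 15 to 25 bp set. The difference was 81.9 ± 18.9 bp in site width and 2.3 ± 0.571 in footprint number (mean and SD over 20 chromosomes), with the same sign on 20 of 20. In the stronger 50% of all footprints the difference in the median number was 1, against 3 in the full list. Footprints of 10 bp, just outside the limit, lay in similar sites, with a median width of 1119 bp and a median of 11 footprints. Only 167 footprints of 8 or 9 bp (0.526%) were alone in their site, whereas 4522 of those of 15 to 25 bp (3.62%) were. Over all footprints the share was 4.21%.

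Their share of a site's footprints climbed with the number of footprints present. It was 1.21% in sites with a single footprint (95% Wilson interval 1.04 to 1.4%) and 3.1% in sites with 2. It reached 9.34% in sites with 5 to 9, 11.8% in sites with 10 to 19 and 13.0% in sites with 20 to 49. In sites with 50 or more it was 12.5% (11.7 to 13.4%), whose interval overlaps that of the class before. Footprints at the 30 bp limit went the other way, with 33.3% in sites with a single footprint and 6.71% in sites with 20 to 49. The cuts come from bulk cells, so a protein bound in fewer cells and a weaker signal per cell cannot be told apart.

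With site width the share climbed as well and then levelled off. It was 5.06% in the narrowest class of sites (251 to 604 bp, 10 classes with about equal numbers of footprints) and 8.7% at 691 to 790 bp. From 901 bp upward the 6 widest classes lay between 10.8 and 11.3%. The score gap between the sets also opened up with width, from 0.03 in the narrowest class to 0.33 at 1365 to 1628 bp. Beyond that it was smaller again, at 0.32 for 1629 to 2107 bp and 0.26 for 2108 to 13152 bp.

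**Figure D2:**
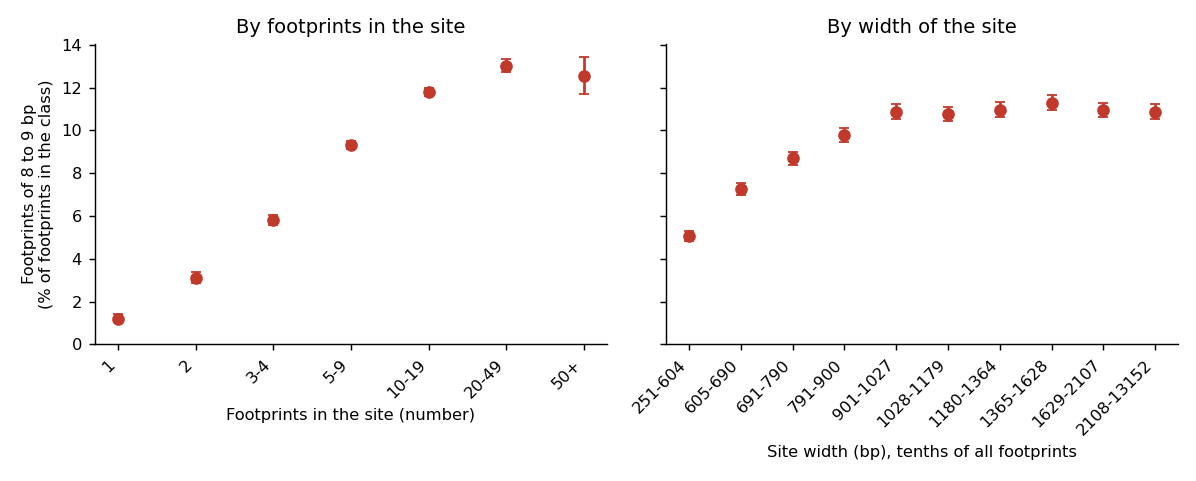
Share of footprints that were 8 or 9 bp wide, in percent with 95% Wilson intervals, by the number of footprints in the site (left) and by site width in bp (right). The share runs from 1.21% in sites with a single footprint to 13.0% in sites with 20 to 49, and levels off between 10.8 and 11.3% in sites wider than 900 bp.

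Footprints of 8 or 9 bp were spread over many sites. At least 1 was present in 18070 sites, 30.8% of the 58632 sites with any footprint and 14% of all 129028 sites. Exactly 1 was found in 10660 sites, 2 to 4 in 6709 sites, 5 to 9 in 665 and 10 or more in 36. These 36 sites held 508 of the members, or 1.6%. In 177 sites every footprint was 8 or 9 bp wide, and 167 of those held just that footprint. Conversely, 1826 of the 10168 sites with 10 or more footprints (18.0%) held none.

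The widths also differed in spacing, in a way that depended on how distance was measured. The nearest other footprint of the same site lay a median of 8 bp away from an 8 to 9 bp footprint (interquartile range 4 to 14 bp), against 16 bp (7 to 28 bp) from one of 15 to 25 bp. It lay less than 10 bp away for 19611 of 31599 members with a neighbour (62.1%, 95% Wilson interval 61.5 to 62.6%) and for 37449 of 120252 footprints of 15 to 25 bp (31.1%, 30.9 to 31.4%). Over all footprints with a neighbour the share was 36.4%. The difference was 30.99 ± 1.73 percentage points (SD, n = 20 chromosomes) and had the same sign on 20 of 20.

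The share of narrow footprints at each distance dropped sharply beyond 9 bp. For the 8 to 9 bp set, each distance from 2 to 9 bp held between 5.66 and 8.97% of the footprints, and the share dropped to 3.73% at 10 bp and 2.83% at 11 bp. For 15 to 25 bp the distances from 4 to 9 bp held 2.63 to 2.88% each, and a broad hump followed with its top of 3.33% at 14 bp. At a distance of 1 bp the sets had 5.15% and 5.14%. A distance of 1 bp was thus about equally frequent in both sets. Distances of 10 to 19 bp were found for 21.1% of the members and 29.9% of the 15 to 25 bp set, and distances of 20 bp or more for 16.8% and 39.0%.

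The typical distance followed the width of the footprint itself. The median distance was 7 bp for 8 bp footprints, 8 bp for 9 bp, 9 bp for 10 bp, 13 bp for 15 bp and 19 bp for 25 bp. Counted instead as a distance no greater than the footprint's own width, a near neighbour was found for 59.5% of the 8 to 9 bp set (95% Wilson interval 59.0 to 60.1%) and 64.3% of the 15 to 25 bp set (64.1 to 64.6%). That share ran from 59.1 to 67.7% over all 23 widths. Measured in bp the narrow footprints were the more crowded, and measured in their own widths they were less so. With the 15 to 25 bp set weighted to the same numbers of footprints per site, its share with a neighbour within its own width was 67.7%, which widened the gap to -8.14 percentage points, against -4.83 unweighted. The cause of this proportion was not tested.

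**Figure D3:**
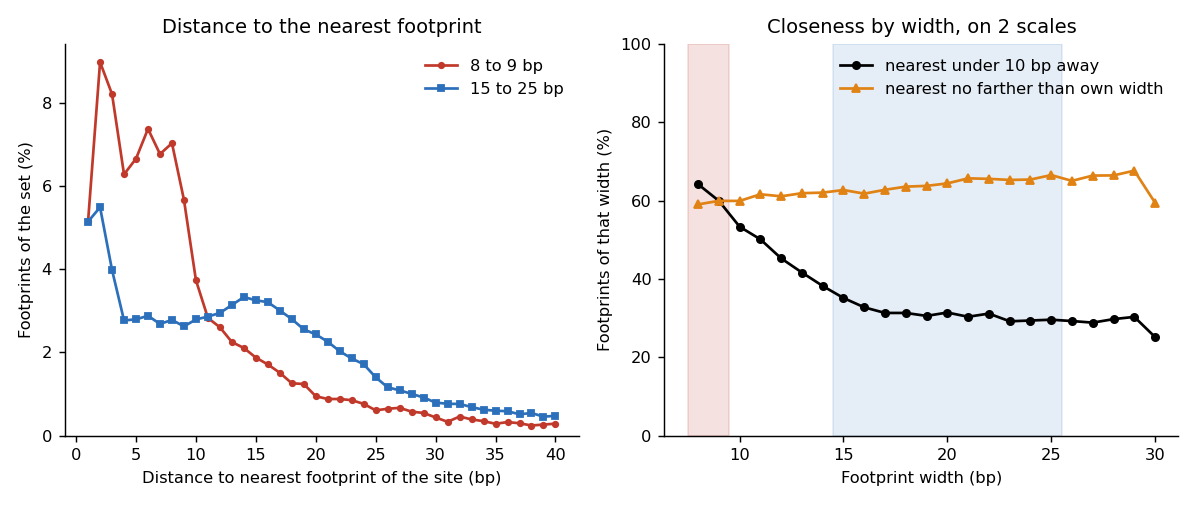
Left, distance in bp to the nearest footprint of the same site for footprints of 8 to 9 bp (red) and 15 to 25 bp (blue), as percent of each set at each distance up to 40 bp. Right, percent of footprints of each width whose nearest neighbour was under 10 bp away (black) or no farther than their own width (orange): the first drops from 64.2% at 8 bp to 25.2% at 30 bp, the second stays between 59.1 and 67.7%.

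In bp, the narrow footprints sat in smaller spaces between others. Among the 27549 members with a neighbour on each side, the stretch between those neighbours had a median length of 39 bp, against 69 bp for 85501 footprints of 15 to 25 bp. Leaving out the footprint's own width, 30 bp and 49 bp of that stretch were open. Both neighbours lay less than 10 bp away for 4953 members (18.0%) and for 4517 footprints of the 15 to 25 bp set (5.28%). Over all footprints with a neighbour on each side the share was 7.65%. In units of the footprint's own width the order turned round, since both neighbours lay no farther than that width for 16.0% of the members and 27.1% of the 15 to 25 bp set. The gaps to the left and to the right were alike, with a median of 12 bp on each side for the 8 to 9 bp set and 20 bp for the 15 to 25 bp set.

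They were seldom the outermost footprint of a site. In sites with 3 or more footprints, 11.3% of the 8 to 9 bp set was first or last, against 24.9% of the 15 to 25 bp set. With the 15 to 25 bp set weighted to the same numbers of footprints per site, its share was 21.2%. The difference of -13.6 percentage points had the same sign on 20 of 20 chromosomes.

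The closest neighbour of a narrow footprint was commonly the stronger. It had the stronger score for 22816 of 31569 members (72.3%, 95% Wilson interval 71.8 to 72.8%), against 49.3% (49 to 49.6%) for 15 to 25 bp. Over all footprints the share was 51.3%. Weighted to the same numbers of footprints per site, the share for 15 to 25 bp was 48.6%. For footprints of 10 bp, just outside the limit, the share was 70.5%, close to that of the members. The median score of that neighbour was -4.96 next to an 8 to 9 bp footprint and -4.43 next to one of 15 to 25 bp. The narrow footprint was thus in general a weak mark beside a stronger one, while footprints of middle width were as often the stronger as the weaker.

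Without weighting for footprints per site, the nearest footprint was narrow no more often for members than for footprints of middle width. The nearest neighbour was itself 8 or 9 bp wide for 11.4% of the members, against 12.5% for the 15 to 25 bp set and 11.9% for all footprints. It was 26 to 30 bp wide for 29.7% and 28.5%, again close. Of the 270444 neighbouring footprints taken 2 at a time, both were 8 or 9 bp wide in 3228 cases, with a median gap of 9 bp. The median gap was 13 bp where 1 of them was that narrow and 23 bp where neither was.

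Some members almost touched their neighbour. A gap of 1 or 2 bp was found for 4461 of them (14.1%), against 10.6% for 15 to 25 bp and 11.6% for all footprints. Joined with that neighbour the members spanned a median of 33 bp, and 66.3% of such spans exceeded 30 bp, the widest single footprint in the list. For 15 to 25 bp the median span was 40 bp and 90.7% exceeded 30 bp. Over all footprints these values were 41 bp and 89.8%. When all footprints 2 bp or less apart were joined, footprints of 8 or 9 bp were still 8.8% of the joined list.

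Within the DHS site, the narrow footprints lay slightly nearer the middle. On a scale of 0 at the site's centre to 1 at its edge their mean position was 0.276, against 0.292 for 15 to 25 bp, and 85.6% against 83.3% lay in the central part under 0.5. The difference of -0.016 ± 0.008 (SD, n = 20 chromosomes) had the same sign on 19 of 20 chromosomes, and it was small beside the spread within each set. Its size depended on the footprints used, with -0.0057 in the stronger 50% of all footprints, less than that SD, and -0.026 at the same number of footprints per site. The nearer site edge was a median of 389 bp away for 8 to 9 bp and 347 bp for 15 to 25 bp, in sites that were also the broader ones. Within 16491 sites that held both sets, the 8 to 9 bp footprints were the more central in 54.0% and the less central in 45.9%.

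**Figure D4:**
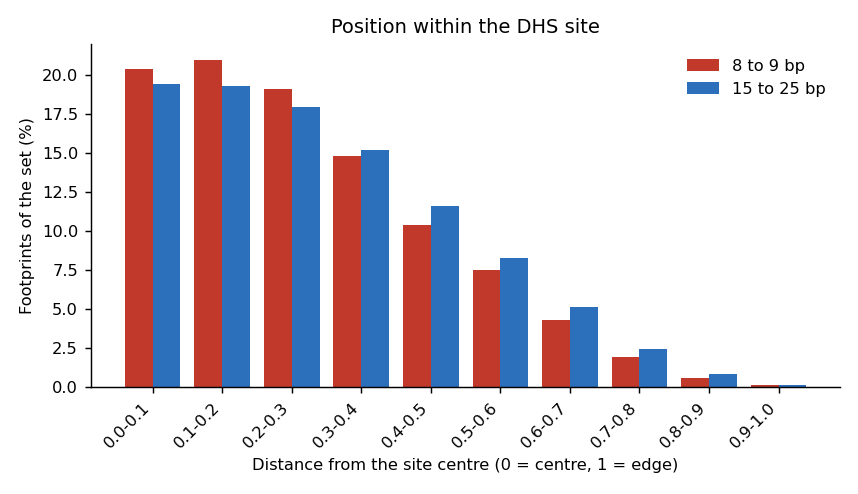
Position of the footprint's centre within its DHS site, from 0 at the centre to 1 at the edge, as percent of each set for footprints of 8 to 9 bp (red) and 15 to 25 bp (blue). Both sets decline toward the edge, and the 8 to 9 bp bars are the higher in the 3 innermost classes (20.4, 20.9 and 19.1%, against 19.4, 19.3 and 17.9%).

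The share of narrow footprints varied little from chromosome to chromosome. It averaged 9.63 ± 0.44% over the 19 autosomes (SD, n = 19). Chromosome 12 was the lowest autosome with 9.0% (95% Wilson interval 8.5 to 9.53%), and chromosome 10 was the highest with 10.5% (10.1 to 10.97%). Chromosome X had 589 of 6887 footprints, or 8.55% (7.91 to 9.24%), the lowest of the 20, although this interval overlaps that of chromosome 12. Its share predicted from the number of footprints per site was 9.21%, just inside the upper end of that interval. The intervals give counting error only and treat footprints of the same site as independent. Chromosome Y held a single footprint, of another width. Autosomes between the extremes mostly had overlapping intervals.

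**Figure D5:**
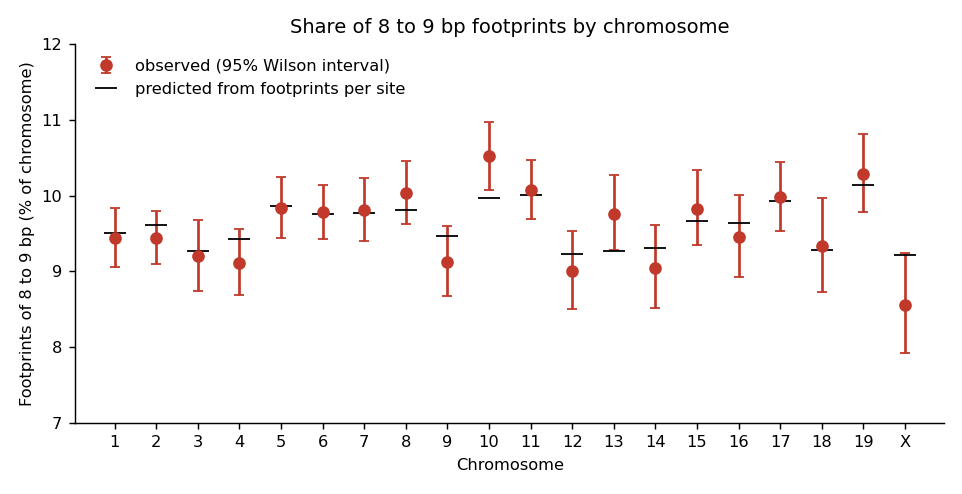
Share of footprints that were 8 or 9 bp wide on each chromosome, in percent with 95% Wilson intervals (red), and the share predicted from the number of footprints per site (black dashes). The vertical axis starts at 7%. Chromosome X is lowest at 8.55% and chromosome 10 highest at 10.5%.

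On chromosome 10 a stretch of 2 Mb was rich in members. The bins of 1 Mb with the most members genome-wide began at 116 Mb and 117 Mb on chromosome 10 and held 228 of 1613 footprints (14.1%, 95% Wilson interval 12.5 to 15.9%) and 215 of 1316 (16.3%, 14.4 to 18.4%). The number of footprints per site predicted 11.7% and 11.5%, although choosing bins by their number of members favours a high share. The rest of chromosome 10 had 9.61%, close to the average over autosomes. In the stretch the members were less crowded, with 43.1% having a neighbour under 10 bp away, against 60.4% on the rest of the chromosome. Footprints there were narrow in general, with a median width of 16 bp against 21 bp on the rest of the chromosome.

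The next bins by number of members lay nearer to their predicted shares. The bin from 5 Mb on chromosome 19 had 162 members (12.2%, 95% Wilson interval 10.5 to 14.04%), that from 3 Mb on chromosome 11 had 150 (13.0%, 11.1 to 15.01%) and that from 77 Mb on chromosome 2 had 94 (10.98%, 9.06 to 13.3%). Their predicted shares were 11.7%, 11.5% and 11.3%. These lay inside the intervals, which count each footprint as independent although many share a site. Among the 1238 bins with 100 or more footprints the share had a median of 9.57% (interquartile range 8.03 to 11.01%). Its extremes, chosen after their values were seen, were 1 of 134 footprints (0.746%) in the bin from 130 Mb on chromosome 6 and 23 of 115 (20%) in the bin from 139 Mb on chromosome 2. In the first of these 31.3% of footprints were at the 30 bp limit, against 6.09% in the second.

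The 10 sites with the most members were broad and held 231 of them, 0.727% of the total. The site on chromosome 19 from 5836635 to 5849786 had 47 members among 259 footprints (18.1%). A site on chromosome 17 from 39979772 to 39985950 had 33 of 172 (19.2%), and a site on chromosome 1 from 24618210 to 24623190 had 29 of 144 (20.1%). Chromosome 10 supplied 3 of the 10, from 118047704 to 118058030 with 22, from 117145748 to 117149179 with 18 and from 116717300 to 116728628 with 17. The remaining 4 lay on chromosome 2 from 22442596 to 22446218 with 18, on chromosome 11 from 86390399 to 86396657 with 17, on chromosome 8 from 87497626 to 87504448 with 16 and on chromosome 19 from 12083771 to 12087266 with 14. Together 17.7% of the footprints of these sites were 8 or 9 bp wide, above the 12.5% of all sites with 50 or more footprints, a share that their choice by number of members favours.

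Scores split these 10 sites into unequal groups. The median score of the members was -23.0 in the chromosome 17 site, -15.8 in the chromosome 1 site and -19.95 in the chromosome 2 site, against -30.8, -28.2 and -29.2 for their 15 to 25 bp footprints. In the other 7 sites the members' median lay between -5.14 and -4.08. In all 10 the narrow footprints had the weaker median, and the gap was smallest in the chromosome 8 site, with -4.33 for the members and -4.34 for the 15 to 25 bp footprints.

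Among sites with 10 or more footprints, the highest share of members was 7 of 11, or 63.6% (95% Wilson interval 35.4 to 84.8%), in the chromosome 11 site from 118901866 to 118902830, which was 965 bp wide. The next 4 by rule each had 5 of 10 (50%, 23.7 to 76.3%). They lay on chromosome 6 from 7682876 to 7683627, on chromosome 7 from 75407365 to 75408238, on chromosome 8 from 126172010 to 126173054 and on chromosome 10 from 117088939 to 117089573. The wide intervals reflect the small numbers, and the highest of 10168 shares is high in part because it was picked.

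Members with extreme scores were few, and many came from 3 sites. A score below -20 was held by 95 members (0.299% of those with a finite score), against 313 footprints of 15 to 25 bp (0.251%). Over all footprints it was held by 929 (0.283%), close to the share of the members. The sites on chromosomes 17, 1 and 2 named above held 20, 13 and 9 of the 95, or 44.2% together, and these sites also held 95 of the 313. Without the 3 sites the order turned round, with 53 members (0.167%) against 218 footprints of 15 to 25 bp (0.175%). These sites were chosen for holding the most such members, and leaving them out therefore favours a lower share of members. With all sites kept, the difference was positive on 10 of 20 chromosomes, with no common direction across the genome.

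The strongest finite score of a member, -84.7, belonged to an 8 bp footprint on chromosome 2 from 22442987 to 22442994, 3 bp away from an 18 bp footprint scored -89.2. The second, on chromosome 17 from 39984488 to 39984495, was scored -80.0, and the sixth and ninth lay in the chromosome 1 site, from 24619277 to 24619285 with -62.8 and from 24620042 to 24620050 with -52.5. The tenth was in the chromosome 17 site, from 39983841 to 39983848 with -51.7, and the seventh on chromosome 4 from 79648856 to 79648863 with -60.5, in a site of 80 footprints. So 6 of the 10 lay in sites with 80 or more footprints.

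The other 4 of the 10 lay in sites of 711 to 1050 bp with 2 to 9 footprints. The finite scores of all footprints in these sites ran from -13.5 to -79.1, against a median of -4.38 over the whole list. The third, scored -75.5, was an 8 bp footprint on chromosome 16 from 17222444 to 17222451, near the middle of a 731 bp site and the strongest of its 4 footprints. The eighth, scored -52.8, was on chromosome 9 from 123371097 to 123371105, beside 8 other footprints whose scores ran from -13.5 to -67.6 apart from 1 at -Inf.

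The remaining members of the 10 shared a layout. On chromosome 17 a 29 bp footprint from 50559455 to 50559483 (-71.9) was followed after 5 bp by a 9 bp footprint from 50559489 to 50559497 (-75.1). On chromosome 1 a 29 bp footprint from 87761140 to 87761168 (-79.1) was followed after 5 bp by a 9 bp footprint from 87761174 to 87761182 (-73.1). Each was the entire set of footprints in its site, of 723 bp and 711 bp. This layout was singled out after its values were seen. A 9 bp footprint 5 bp from a 29 bp neighbour occurred 75 times in the list, with a median score of -4.6, and the strongest of the others was scored -13.1. Whether these sites share sequence was not tested.

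The 167 members that were alone in their site formed the opposite end. Their median score was -3.7 (interquartile range -3.89 to -3.6), near the weakest end of the list, and the strongest finite score among them was -5.93. The 4522 lone footprints of 15 to 25 bp had a median of -3.78 and a strongest finite score of -25.2. Scores of -Inf, left out of these values, were held by 2 of the lone members and 68 of the lone 15 to 25 bp footprints. The holding sites were alike in width, with medians of 570 bp and 568 bp. A narrow footprint with no neighbour was thus rare, and its score was mostly weak.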

How the data were processed

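DNase I hypersensitive sites and footprints came from 3T3-L1 nuclei treated with DNase I, from which short fragments were isolated on a sucrose gradient and sequenced, per the labels' protocols. Both lists are pooled: per the labels, the 2 DNase samples add reads to a library sequenced before, and all of its reads were used. The build is mm9 and HOMER is named among the tools, per the submitters' processing notes. No source used here names the footprint caller or the step done by HOMER. The deposited p-value column was treated as a score, since all its values are negative or -Inf. The name of the deposited footprint list states 0.01 as its false discovery rate and 30 bp as its widest footprint.

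Starts were assumed to count from 0, as in BED files, and are printed counting from 1. No footprint was filtered out, and each lay fully inside a site; 27 sites overlap another, and there the site that starts last before the footprint was used. Distances are the bases between footprints of 1 site. Predicted shares apply the share of 8 to 9 bp footprints at each number of footprints per site, with sites of 60 or more pooled. Medians of scores leave out -Inf. Named regions follow 4 rules: the 10 strongest finite scores among members, the 10 sites with the most members, the 5 sites with the highest share among those with 10 or more footprints, and the 5 bins of 1 Mb with the most. The members and lists were chosen with earlier results of these data known. Planned descriptions of sequence and of gene starts were not run, since both need mm9 references. The steps for the score difference and for the share with a close neighbour were tested on simulated data. All simulated sites had the same width and number of footprints, and the other measures were not checked there. Python 3.11.15, numpy 2.4.6, pandas 2.3.3, scipy 1.17.1 and matplotlib 3.10.9 were used.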

Additional observations from a re-analysis of the deposited data

Results flagged for a closer look

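Outside the score comparisons stood 21 footprints of 8 or 9 bp whose score is -Inf, which were counted as members but carry no usable value. They were 0.0661% of the members (95% Wilson interval 0.0432 to 0.101%), against 202 footprints or 0.162% (0.141 to 0.186%) of those of 15 to 25 bp. Over all footprints 496 had such a score, or 0.151%. The 21 members lay on 12 chromosomes, and 3 of them shared a site of 85 footprints on chromosome X from 166441426 to 166447140. Their sites held a median of 8 footprints, against 2 for the 15 to 25 bp footprints at -Inf and 2 for all footprints at -Inf. Of the 21, 2 were alone in their site, against 68 of the 202 and 171 of all 496. Why these scores are -Inf was not tested.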

How the results depend on the processing

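No paired analysis was possible because the site and footprint lists each pool 1 library, and the numbered RNA experiments were not used. Values were taken to have kept their range when they moved by less than their SD over chromosomes, or for the share of members by less than its 95% interval. The SD of the share over autosomes (0.44) was judged instead by the mean reach to either side of the autosomes' 95% Wilson intervals, 0.459. That allowance exceeds the SD itself, so no fall in it could count as moved. Of 69 values under alternatives, 46 kept their range, 22 moved and 1 reversed. The alternatives for the SD over autosomes are all among the 46 and say little about stability. Of the 46, 9 were exactly equal, among them the 3 with overlap of at least 1 bp, and say nothing about stability. The reversed value was the difference in close neighbours, -4.83 percentage points with distance set against the own width, an alternative added after the data were seen, as were leaving out the 2 chromosome 10 bins and the counts of named sites and bins. Leaving out the 3 sites with the most members scored below -20, also added then, reversed the difference in the share of such scores to -0.0078 percentage points. That choice of sites itself favours a lower share of members. The difference in close neighbours was 33.1 with 8 bp alone, 28.3 with 8 to 10 bp, 28.6 against all footprints of 10 bp or more, 33.2 with the stronger 50% of footprints, 28.5 at the same number of footprints per site, 22.2 at under 20 bp and 32.7 after joining footprints 2 bp or less apart. The share of members was 4.77% with 8 bp alone, 13.8% with 8 to 10 bp, 8.45% in the stronger 50% and 8.8% after joining. The score difference was 0.22 in the stronger 50%, 0.21 at the same site widths and 0.32 at the same number of footprints per site. The score difference within sites was 0.38 with 8 bp alone and 0.45 in the stronger 50%. The difference in site width was 101.5 bp against all footprints of 10 bp or more and 56 bp in the stronger 50%. The difference in footprint number was 1 in the stronger 50% and 2 at the same site widths. The difference in relative distance was -0.0057 in the stronger 50% and -0.026 at the same number of footprints per site. The stronger 50% changes the list itself, so fewer footprints per site are bound to follow. With 8 bp alone or 8 to 10 bp the share of members changes because the set does. A limit of 20 bp changes what counts as close. For the remaining moved values the cause was not tested. Among the 10 sites and 5 bins named by number of members, counts fell by more than 1.5 times in 10 of 15 with the stronger 50% and in none after joining. No read depth is given, so which narrow footprints rest on few cuts is unknown.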
